A study of Mus musculus with 4 samples.

Results

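The 7 genes taken here for MHC class I presentation and the immunoproteasome were followed through a TNF time course in mouse fibroblasts. They were H2-D1, H2-K1, B2m, Tapbp, Erap1, Psmb8 and Psmb10, and all probe sets that the array annotation gives to any of them were taken, without regard to their values. These 7, of 18193 named genes on the array, were chosen with earlier results of these data known, among them a late increase at 12 h, so the counts below describe that choice and give it no independent support. The rule found 25 probe sets of 45101 on the array. Of these, 22 were annotated to a single gene and 3 to several genes at once.

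The samples were mouse embryonic 3T3 fibroblasts, an immortal line, kept overnight in medium with 0.5% serum. They were TNF-treated for 0.5, 2 or 12 h, or harvested untreated (basal), with 1 array in each of the 4 groups. Tumour necrosis factor (TNF), an inflammatory cytokine, was given at 10 ng/ml to the 0.5 h and 12 h cells. The protocol of the 2 h sample names no dose and repeats the basal text, and its title puts it at 2 h of TNF. No array of cells held in low serum for the same times without TNF was analysed, so the effect of TNF and that of added time cannot be told apart. With 1 array a group there is no spread between replicates, and 0 tests were run: "rose" and "fell" mean at least 2-fold against the named array, after any signal below a floor of 9.08 (the 30th percentile over the whole table) was raised to it. The H2 haplotype that this line carries is not given in the sources used here.

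MHC class I molecules show peptides from a cell's own proteins to CD8+ T cells. A heavy chain (from H2-D1 or H2-K1 in the mouse) pairs with the light chain beta-2-microglobulin (B2m) and, in the endoplasmic reticulum, is held by tapasin (Tapbp) beside the peptide transporter until a trimmed peptide is bound. Cytokines, interferon-gamma above all, make cells build the immunoproteasome, in which Psmb8 and Psmb10 take the places of the standard catalytic subunits Psmb5 and Psmb7 and change which peptides are cut.

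Median signals of the arrays lay between 19.9 and 22.1. Relative to basal, the median probe set had a log2 ratio of -0.05 after 0.5 h, -0.12 after 2 h and -0.20 after 12 h. The ratio of 3' to 5' signal ran from 1.21 to 1.26 for Actb and from 0.736 to 0.776 for Gapdh. Of 10 fibroblast markers 8 exceeded a signal of 102, the 75th percentile of all values, on some array, with Vim at 9091 or more throughout; Thy1 and Dcn stayed at or under 14.6 and 19.9. The summed signal of 11 macrophage and leukocyte markers came to 261 in basal cells and then 305 (0.5 h), 263 (2 h) and 266 (12 h). Of these only Cd14 exceeded 102, and Ptprc, the pan-leukocyte marker CD45, lay under the floor on all 4 arrays. The summed signal of 5 endothelial markers ran from 60.7 to 64.0, and that of 5 epithelial markers from 78.1 to 102. Fewer cells of a type and less RNA per cell cannot be told apart in such bulk samples.

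At 12 h of TNF 6 of the 7 genes stood at least 2-fold above basal: Psmb10 3.64-fold, H2-D1 3.04-fold, Tapbp 2.60-fold, Psmb8 at least 2.60-fold, H2-K1 2.27-fold and Erap1 2.24-fold. B2m, at a ratio of 1.07, was the exception. Psmb8 passed the floor only at 2 h and 12 h, so its ratio had to be positive and its place in the count is weak. At 0.5 h none of the 7 had risen, and at 2 h only Psmb10 had, 2.35-fold. Each gene is represented here by its probe set of highest mean log2 signal. Over all 16269 genes analysed 2.55% were at least 2-fold higher at 0.5 h, 2.58% at 2 h and 2.79% at 12 h, while 5.18% were at least 2-fold lower at 12 h, where 0 of the 7 were. The median log2 ratio of the 7 genes was 0.00 (0.5 h), 0.60 (2 h) and 1.38 (12 h), beside -0.03, -0.09 and -0.14 for all genes. The 0.5 h and 2 h medians of the 7 are the ratios of Psmb8, which the floor set. Without a floor the medians of the 7 were 0.07, 0.65 and 1.38.

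**Figure D1:**
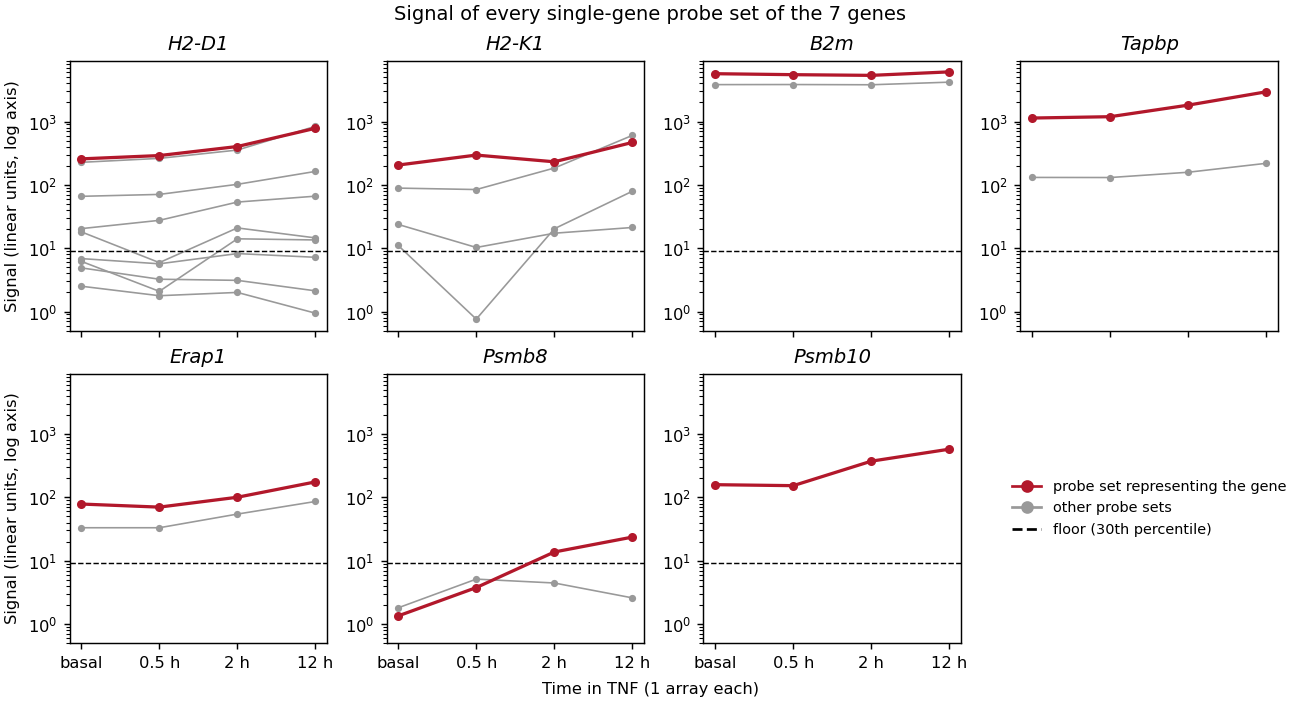
Signal (linear units, log axis) of each single-gene probe set of the 7 genes on the basal, 0.5 h, 2 h and 12 h arrays, with the probe set that represents the gene in red, the others in grey and the floor of 9.08 dashed. All 7 red lines are highest at 12 h; B2m is nearly flat, and Psmb8 starts under the floor.

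H2-D1 encodes 1 of the classical class I heavy chains. Its representative probe set (1425545_x_at) gave signals of 257 in basal cells and then 290.1 (0.5 h), 403 (2 h) and 782 (12 h). A companion of similar signal (1451784_x_at) read 227, 262, 354 and 841 on the same arrays, and the dimmer 1451683_x_at 65.9, 70.7, 102 and 163. All 3 climbed at each step, and the larger part of the gain came after 2 h: by 2 h they had gained 27.8%, 20.8% and 37.1% of what they gained by 12 h. At 12 h these 3 stood 3.04-fold, 3.71-fold and 2.47-fold above basal.

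H2-K1 encodes the other classical heavy chain named here. Its representative probe set (1451931_x_at) read 206 in basal cells and then 295 (0.5 h), 231 (2 h) and 467 (12 h). Thus it was higher at 0.5 h than at 2 h, a dip that 1425336_x_at, with 88.9, 84.4, 184 and 604, did not show. On 1425336_x_at the signal stood 2.07-fold above basal at 2 h and 6.79-fold at 12 h, against 1.13-fold and 2.27-fold on the representative probe set. The dimmer 1427746_x_at read 11.0, 0.759, 20.3 and 79.3, which is 7.18-fold higher at 12 h than in basal cells. Only 9.87%, 18.5% and 13.5% of the 12 h gain was present at 2 h on these 3 probe sets.

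The promoters of both heavy chain genes are shown because they share a block with matches to elements for NF-kB, the main transcription factor downstream of TNF, and for interferon regulatory factors. Sequences are from RefSeq (GRCm38.p6) and read 5′ to 3′ on the gene's strand, and capitals mark the matches. They are reference sequences, and the H2 haplotype of this line is not given, so the line's own letters may differ. The H2-K1 stretch is chr17:34000379-34000498, minus strand, and the H2-D1 stretch chr17:35262883-35263002, plus strand.
H2-K1: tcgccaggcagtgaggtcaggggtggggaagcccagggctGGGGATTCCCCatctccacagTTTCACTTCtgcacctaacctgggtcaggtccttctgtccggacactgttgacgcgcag
H2-D1: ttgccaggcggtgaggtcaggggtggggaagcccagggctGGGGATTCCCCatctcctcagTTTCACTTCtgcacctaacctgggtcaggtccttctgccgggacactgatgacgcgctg
The 2 stretches are identical at 113 of 120 bases. In each the first run of capitals holds overlapping matches to the 10-letter NF-kB consensus, on both strands, and the second run a match to GAANNGAAA on the opposite strand.

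Across both heavy chain genes the probe sets spread widely. Of the 13 annotated to H2-D1 alone (9) or H2-K1 alone (4), 3 lay under the floor on all arrays, all of them annotated to H2-D1, and 10 were measured above it somewhere. At 12 h 7 of the 10 stood at least 2-fold above basal and 0 below, with log2 ratios from -0.32 to 2.84. The 5 with a signal above 102 on some array had log2 ratios from 1.18 to 2.76. Of these, 1451683_x_at passed 102 at 12 h only and 1425336_x_at at 2 and 12 h only, so a positive ratio was partly set by that limit. Of the other 5, 1426324_at read 66.3 at 12 h against 20.4 in basal cells (3.25-fold), and it had reached 53.5 by 2 h, which is 72.1% of its gain. The low probe sets 1450170_x_at (14.5 at 12 h, 18.1 in basal cells) and 1450534_x_at (21.2 and 23.7) were within 2-fold of basal at 12 h. At 0.5 h 1450534_x_at was 2.31-fold lower than basal. On 1451934_at (13.5 and 6.21) the basal signal lay under the floor, so its ratio is at least 1.49-fold. Class I genes are related in sequence, and nearly all of these probe sets carry the suffix _x, with which the manufacturer marks probes that may bind other transcripts. No probe sequences were compared, so the share of each gene in a signal cannot be settled here.

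**Figure D2:**
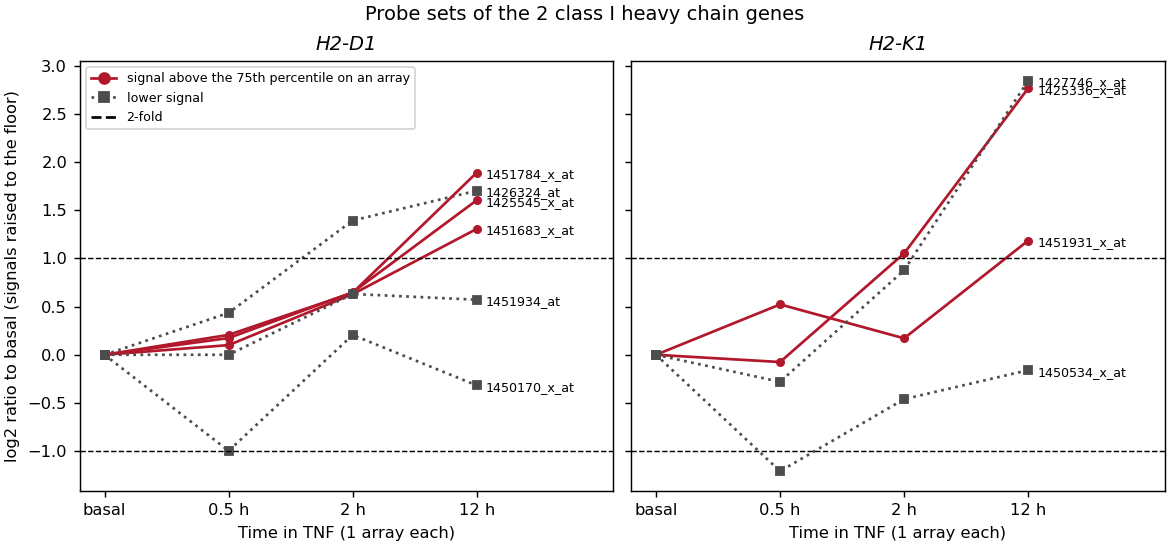
log2 ratio to basal (signals raised to the floor) of the 10 probe sets of H2-D1 and H2-K1 that exceeded the floor, by time in TNF; red lines reached a signal above 102 on some array, dotted grey lines did not, and dashed lines mark 2-fold. At 12 h the red lines run from 1.18 to 2.76 and the grey ones from -0.32 to 2.84; 1451683_x_at and 1425336_x_at are red only through the later arrays.

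B2m encodes the light chain that every class I heavy chain needs to reach the cell surface. Its 2 probe sets read 5689, 5491, 5355 and 6079 (1449289_a_at), and 3825, 3837, 3805 and 4184 (1452428_a_at), on the basal, 0.5 h, 2 h and 12 h arrays. The 4 signals of each probe set lay close together, with log2 ratios between -0.09 and 0.13 at every time. The small negative ratios of 1449289_a_at at 0.5 and 2 h became positive with median centring (0.00 and 0.01) and stayed negative with quantile normalization (-0.04 at both times) and loess (-0.03 at both). Its promoter also holds an NF-kB consensus match, so the stretch is set beside those of the heavy chains; the first run of capitals matches GAAANNGAAA and the second the NF-kB consensus on the opposite strand (GRCm38.p6, chr2:122147527-122147646, plus strand).
B2m: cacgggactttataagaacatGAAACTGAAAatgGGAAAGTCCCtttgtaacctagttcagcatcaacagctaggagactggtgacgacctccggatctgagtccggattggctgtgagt

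Tapbp encodes tapasin, which holds empty class I molecules at the peptide transporter and favours tightly bound peptides. Its probe set 1421812_at read 1135 in basal cells and then 1192 (0.5 h), 1815 (2 h) and 2946 (12 h). The second probe set, 1450378_at, gave 131, 131, 158 and 219. Both were flat at 0.5 h and highest at 12 h, by which time they stood 2.60-fold and 1.67-fold above basal, so only the brighter passed 2-fold. By 2 h they had gained 37.5% and 30.9% of their 12 h increase.

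Erap1 encodes an aminopeptidase of the endoplasmic reticulum that trims peptides to the length class I molecules bind. Its probe set 1416942_at read 78.5 in basal cells and then 70.2 (0.5 h), 100.4 (2 h) and 175 (12 h), and 1439068_at read 33.1, 33.1, 54.5 and 86.1. Both passed 2-fold at 12 h, 2.24-fold and 2.60-fold. With the floor at the 75th percentile the basal signal of the first is raised to 102, and its ratio, 1.72-fold, no longer passes. The Erap1 promoter has its only match close to the start site, a GAAANNGAAA on the opposite strand, in capitals here (GRCm38.p6, chr13:74639763-74639862, plus strand).
Erap1: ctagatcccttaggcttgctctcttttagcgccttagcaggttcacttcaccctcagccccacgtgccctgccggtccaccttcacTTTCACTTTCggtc

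Psmb10 encodes the immunoproteasome subunit that replaces Psmb7, and was the only one of the 7 to pass 2-fold at 2 h on its representative probe set with the floor of 9.08. Its single probe set (1448632_at) read 159 in basal cells and then 153 (0.5 h), 373 (2 h) and 577 (12 h). It differed little from basal at 0.5 h, and 51.2% of its 12 h gain was present at 2 h. Psmb8, the subunit that replaces Psmb5, read 1.34 and 3.76 in basal cells and at 0.5 h on 1422962_a_at, both under the floor, then 13.7 at 2 h and 23.6 at 12 h. Against the floor this is at least 1.51-fold at 2 h and at least 2.60-fold at 12 h. Its other probe set, 1444619_x_at, stayed under the floor on all arrays, between 1.81 and 5.12. Psmb8 did not reach 2-fold with a floor at the 50th percentile.

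Over single-gene probe sets in place of genes, 18 of the 22 exceeded the floor on some array and 4 did not (3 of H2-D1 and 1 of Psmb8). Of the 18, 0 rose at 0.5 h, 3 at 2 h and 12 at 12 h; over the 30347 probe sets analysed the shares were 2.76%, 2.7% and 2.75%. In the other direction 1 of the 18 fell at 0.5 h, 1450534_x_at of H2-K1, from low signals (10.3 at 0.5 h against 23.7 in basal cells), beside 3.2% of all, and 0 fell at 12 h, beside 5.78%. The median log2 ratio of the 18 was 0.00, 0.63 and 1.34 at the 3 times, and that of all probe sets at 12 h was -0.15. Passing the floor only at the later arrays had to give a positive ratio, as for Psmb8. With the floor at 102, 6 of the 7 genes could be analysed and 4 rose at 12 h (Psmb10, H2-D1, Tapbp and H2-K1), beside 0.616% of 7311 genes. Those 4 exceeded 102 in basal cells too, whereas Erap1 did so at 12 h only, so its ratio there had to be positive.

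The step from 2 h to 12 h was compared directly. Of the 7 genes 1, H2-K1, was at least 2-fold higher at 12 h than at 2 h (2.02-fold), beside 2.81% of all genes. H2-D1 stood 1.94-fold, Erap1 1.75-fold, Psmb8 1.72-fold, Tapbp 1.62-fold, Psmb10 1.55-fold and B2m 1.14-fold above 2 h. All 7 genes had their highest signal at 12 h, as had 15 of the 18 probe sets above the floor, some of which passed it only on the later arrays. The share of all genes or probe sets highest at 12 h was not counted, so these counts have nothing to be set against. The exceptions were 1450170_x_at and 1451934_at of H2-D1 and 1450534_x_at of H2-K1, all at low signals.

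Of the 3 probe sets annotated to several genes, 1424948_x_at, given to H2-K1 and H2-D1 together, read 16.6 in basal cells and then 16.1 (0.5 h), 26.5 (2 h) and 71.9 (12 h). The other 2, 1422348_at (Gm38417, H2-Q2 and H2-D1) and 1451593_at (H2-Q5 and H2-K1), reached at most 14.4 and 12.3. They were left out of the counts.

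The rest of the pathway was described from 9 lists with 92 genes, of which 74 had a probe set of their own in the annotation used here and 71 exceeded the floor. Over all of these, 4 were at least 2-fold higher and 1 lower at 12 h. The class I heavy chain list beside H2-D1 and H2-K1 held 22 genes, of which 8 were analysed, with a median log2 ratio of 0.00 at 12 h. The floor set that median, which is the ratio of H2-Q5 and H2-Q10. They read 7.23 and 5.69 at 12 h, and 2.75 and 8.70 in basal cells, all under the floor. The median therefore does not show that the other heavy chain genes stayed unchanged. H2-Bl read 4.27 in basal cells and then 15.8 (0.5 h), 2.24 (2 h) and 19.5 (12 h). It rose at 12 h, at least 2.15-fold, but its signals crossed the floor back and forth. A probe set it shares with other genes, 1447260_at, read 11.8, 21.4, 19.3 and 16.9. Cd1d1, which presents lipids, fell at 2 h (17.5 against 35.7 in basal cells), its second probe set giving a log2 ratio of -0.84. At 12 h the lowest ratio of Cd1d1 was -1.28. A second probe set of H2-T3 gave -1.43 at 2 h. H2-M3, whose product presents formylated peptides, read 106 at 12 h and 111 in basal cells. A further probe set, 1449875_s_at, annotated jointly to H2-T9, H2-T22 and H2-T10, read 703 at 12 h against 513 in basal cells.

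In the list of peptide transport, loading and folding 0 of 6 genes changed at any time. The chaperone gene Calr read 3039 at 12 h and 3381 in basal cells. Tap1 and Tap2, which encode the peptide transporter beside tapasin, had low signals: 16.2 and 23.6 at 12 h, and 11.5 and 17.6 in basal cells. Of the 4 genes of peptide trimming beside Erap1, Npepps, a cytosolic aminopeptidase gene, fell on 1 probe set to 160.4 at 12 h, against 464 in basal cells (log2 ratio -1.53), while its others gave -0.31 and, under the floor, 0.00. Lap3, at 790 against 929, and the remaining genes of that list stayed within 2-fold.

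None of the 14 core proteasome genes changed at 12 h, with log2 ratios between -0.41 and 0.26 (median -0.15). The constitutive subunits that Psmb8, Psmb9 and Psmb10 replace were among them: Psmb5 read 1644 at 12 h and 1668 in basal cells, Psmb6 1447 and 1468, and Psmb7 3740 and 4083. Psma6, a structural subunit of the core, read 4239 and 3529, and its 4 probe sets ran from -0.83 to 0.41 (log2). Of the 5 genes of the immunoproteasome, its assembly and its activators 0 changed. Psmb9, the remaining inducible catalytic subunit, lay at 4.29 at 12 h and 4.30 in basal cells, with 13.7 and 16.4 at 0.5 and 2 h. The proteasome activator gene Psme1 had 911 at 12 h against 550 in basal cells, a log2 ratio of 0.73, and the maturation factor gene Pomp 1652 against 1698. A probe set given jointly to Psme2 and Psme2b (1417189_at) read 825, 845, 1132 and 1700.5 over the 4 arrays, 2.06-fold higher at 12 h than in basal cells.

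Of 17 regulators of class I genes 3 changed at some time on the representative probe set. Other probe sets reached log2 ratios of 1.12 (0.5 h) and 1.48 (2 h) for Irf3, 1.07 (12 h) for Rfxank and -1.04 (0.5 h) for Creb1. Irf1, a transcription factor of the interferon response that acts on class I promoters, read 151 in basal cells and then 950 (0.5 h), 621 (2 h) and 284 (12 h); it was highest at 0.5 h, when none of the 7 genes had risen. The NF-kB subunit gene Relb read 20.2, 46.4, 138 and 110.4, and Nfkb2 83.1, 113, 240.5 and 235, which is 2.83-fold at 12 h (log2 ratio 0.54 on its second probe set). Rela, another NF-kB subunit gene, lay at 753 at 12 h against 591. Nlrc5, whose product is a coactivator of class I genes, read 29.7 at 12 h against 17.7, a log2 ratio of 0.75.

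Among 8 genes of interferons and their receptors 0 changed on the representative probe set. The second probe set of the receptor gene Ifngr2 rose, with log2 ratios of 1.26 at 2 h and 1.21 at 12 h. Ifnb1 stayed low, at 14.6, 7.15, 9.51 and 21.5 over the 4 arrays, Ifng was under the floor throughout, and the kinase gene Jak1 read 889 at 12 h against 1089. Of 9 genes of MHC class II presentation, Cd74, which encodes the invariant chain, rose at 2 h (60.1) and 12 h (131) against 24.6 in basal cells, and H2-DMb2 fell at 0.5 h (12.4 against 26.7), with log2 ratios from -1.11 to 1.24 over its 3 probe sets and lowest ratios of -1.40 at 2 h and -1.41 at 12 h. Signals of the class II chain genes H2-Aa, H2-Ab1 and H2-Eb1 were at most 20.3 on these probe sets, and Ciita, the class II coactivator gene, read 21.3 at 12 h against 16.3. No other gene of that list changed at 2 or 12 h on its representative probe set, while 1449580_s_at, annotated jointly to H2-DMb2 and H2-DMb1, read 6.36 at 12 h against 19.7.

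**Figure D3:**
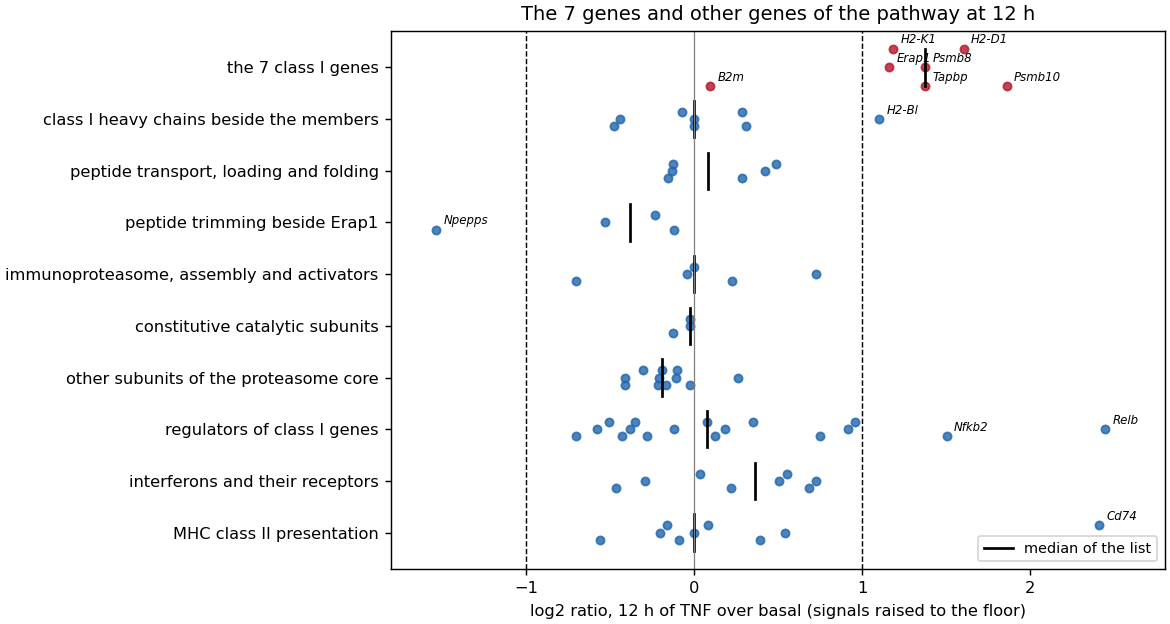
log2 ratio of 12 h of TNF over basal (signals raised to the floor) for the 7 genes (red, top row) and for the analysed genes of 9 pathway lists (blue), 1 point a gene, with each list's median as a black bar and 2-fold dashed. The red points other than B2m lie between 1.16 and 1.86; in the lists only H2-Bl, Nfkb2, Relb and Cd74 lie above 1, and Npepps below -1.

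The genes most like the 7 in pattern were sought among 7305 others with a signal above 102 on some array, by the Euclidean distance of their 3 log2 ratios to basal, without a floor, from the median ratios of the 7 (0.07, 0.65 and 1.38). The nearest were Tnip1 (0.12, 0.81 and 1.53; distance 0.23), which encodes an A20-binding inhibitor of NF-kB, Ddx58 (0.10, 0.77 and 1.16; distance 0.25), the RNA sensor RIG-I, and C1s1 (0.08, 0.38 and 1.33; distance 0.27), a complement protease gene. Trib3, a pseudokinase gene, and Sod3, for extracellular superoxide dismutase, followed at 0.32 and 0.33. The 7 genes themselves lay at 0.03 (Tapbp), 0.25 (H2-D1), 0.43 (Erap1), 0.68 (H2-K1), 0.77 (Psmb10), 1.48 (B2m) and 4.11 (Psmb8, whose ratios start from signals under the floor). Tnip1 was thus nearer to the median than every member but Tapbp, whose own 0.5 h and 12 h ratios are that median. The 2 h median is the ratio of H2-D1, so the short distances of Tapbp and H2-D1 were partly set by how the profile was made. The measure rests on 4 arrays, and all 3 ratios share the basal array. Ddx58 and Sod3 exceeded 102 at 2 h and 12 h only, so their positive ratios there were partly set by that limit.

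Promoter matches were counted over the 300-base windows (250 bases before to 50 after the start site) that RefSeq gave for all 7 genes, on both strands. The NF-kB consensus was found for 3 of the 7 (H2-K1, H2-D1 and B2m), and in 4.51% of 32851 windows of that length. GAAANNGAAA was found for B2m and Erap1, and in 3.44% of windows, and GAANNGAAA for H2-K1 and H2-D1, and in 7.52%. Those of Tapbp, Psmb8 and Psmb10 do not hold these letters. Whether the matches bear on the ratios of these genes was not tested. The NF-kB and GAANNGAAA matches of H2-D1 and H2-K1 keep the same order and spacing, starting 171 and 150 bases before the start site in H2-D1, and 111 and 90 before 1 of the 2 RefSeq starts of H2-K1. A match is a description of the letters and not a bound site.

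**Figure D4:**
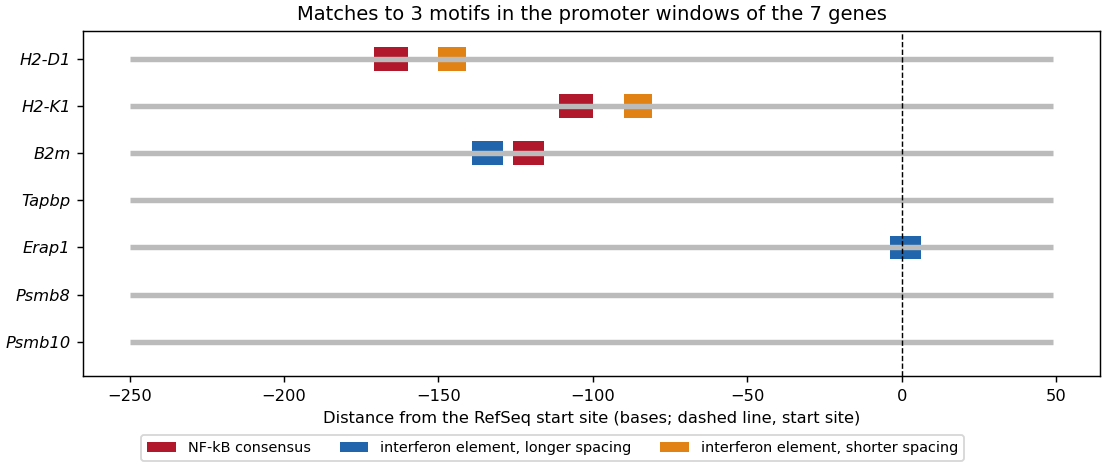
Positions of matches to the NF-kB consensus (red), GAAANNGAAA (blue, longer spacing) and GAANNGAAA (orange, shorter spacing) in the promoter windows of the 7 genes, as bases from the RefSeq start site (dashed). H2-D1 and H2-K1 carry red and orange matches in the same order; Tapbp, Psmb8 and Psmb10 carry none.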

How the data were processed

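The authors deposited 1 linear intensity per probe set for each of 4 Affymetrix Mouse Genome 430 2.0 arrays, made from 8 µg of total RNA each, per the labels. How probe signals were summarised, and whether arrays were scaled to each other, is not given in the sources used here. Depth does not apply; the number of arrays, 1 a group, limits the precision. Genes were named by GEO's platform annotation: 34945 probe sets had 1 gene, 932 several, and 64 controls were left out. Signals were raised to the floor of 9.08 and log2 ratios taken with no further scaling (Python 3.11.15, pandas 2.3.3). The steps were checked on simulated data, with changes past the threshold planted only in genes well above the floor. That check does not bear on signals near the floor. Members and lists were chosen with earlier results of these data known. Named genes were all members, list genes past 2-fold at any time, the gene of highest mean signal in each list and the 5 of most like pattern. Tap1, Tap2, Psmb5, Psmb6, Psmb9, Psme1, Nlrc5, Ciita, Irf3, Rfxank, Creb1, Ifngr2, H2-T3, H2-Q5, H2-Q10, Ifnb1, Ifng, H2-Aa, H2-Ab1, H2-Eb1 and the joint probe sets were added after their values were seen. Alternatives were other floors, scalings, thresholds and choices of probe set.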

Additional observations from a re-analysis of the deposited data

Results flagged for a closer look

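The probe set 1424948_x_at, which is annotated to H2-K1 and H2-D1 together and enters no count above, was 4.33-fold higher at 12 h of TNF than in basal cells (71.9 and 16.6). It drew attention as a signal in data outside the main comparisons. No Dixon comparison of samples was possible with 1 array a group.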

How the results depend on the processing

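No paired analysis was possible because each group holds 1 array. At 12 h, 6 of 7 genes rose with every scaling, with floors at the 20th percentile or none and at 1.5-fold; 5 rose with a floor at the 50th percentile (Psmb8 short, 0.17 on the log2 scale), 4 with one at the 75th (Psmb8 and Erap1 short, 0.00 and 0.78), 4 when probe sets of a gene were averaged (H2-D1 0.75 and Psmb8 0.69, means that include probe sets under the floor) and 2 at 3-fold. Without suffixed probe sets 4 genes could be analysed (H2-D1, Tapbp, Erap1 and Psmb10) and all 4 rose. Of the probe sets 6 rose at 12 h with the floor at the 75th percentile, 6 at 3-fold and 5 of 7 without suffixes, against 12; without a floor 2 fell. At 2 h the number of genes was 2 with the floor at the 20th percentile, without a floor or without suffixed probe sets, 4 at 1.5-fold and 0 at 3-fold, and of probe sets 5, 6, 1, 11 and 0 with the 20th percentile floor, no floor, the 75th percentile floor, 1.5-fold and 3-fold. At 0.5 h 1 gene and 2 probe sets rose without a floor, all on signals under it. From 2 to 12 h 2 genes rose with median centring, quantile normalization or loess, 6 at 1.5-fold, and 0 at 3-fold or without suffixed probe sets. Shares over all genes or probe sets were not counted for the alternative settings, apart from 0.616% of genes at 12 h with the 75th percentile floor. The counts under alternatives thus show only how far the calls moved. Of 240 single-gene ratios under alternatives 228 kept their side of 2-fold, 5 lost it, 7 gained it and 0 turned. Signals near the floor, those of Psmb8, Tap1 and Psmb9 among them, limit what can be said of these genes.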
